A study of Drosophila melanogaster with 6 samples.

Results

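The genes e (ebony) and yellow-h are 2 pigmentation genes of Drosophila, and their RNA levels were followed in S2 cells after RNAi. They were taken by name from the gene column of both deposited tables, which together listed 582 features, genes and repeats. They were selected on their normalized counts in each RNAi treatment and in GFP RNAi, so those values are described here and not tested. The gene e was listed in both tables and yellow-h in the dKDM4A table alone.

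The study sequenced polyadenylated RNA of S2 cells, an embryonic Drosophila line with haemocyte-like properties, in 6 libraries of 3 groups with 2 libraries each. The cells of all groups were kept at 25 °C in Schneider medium with 10% foetal bovine serum and received double-stranded RNA with the transfection reagent DOTAP for 5 days. The double-stranded RNA was directed against dKDM4A, a histone H3 demethylase encoded by Kdm4A, against HP1a, a heterochromatin protein or against GFP, which served as the control. The labels name no separate cultures within a group, so the spread between libraries may be technical.

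Ebony joins beta-alanine to dopamine. The product, N-beta-alanyl dopamine, is a precursor of the light tan colour of the cuticle, and dopamine that is not used in this way can go to brown and black melanin. In glia of the visual system the same enzyme joins beta-alanine to the transmitter histamine, and the hydrolase Tan reverses the reaction. The yellow genes encode secreted proteins related to the major royal jelly proteins of the honeybee. The founding gene y is needed for black melanin, and yellow-f and yellow-f2 encode dopachrome-converting enzymes. yellow-h belongs to this family by its name.

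Both genes have a single annotated transcript. e (FBgn0000527) lies on chromosome 3R from 21229839 to 21237177 on the minus strand, in positions of the files, which equal the BDGP6 annotation. Its transcript has 7 exons with 3142 nt of exon sequence, of which 2637 nt are coding, and its longest intron spans 3861 bp. yellow-h (FBgn0039896) lies on chromosome 4 from 227922 to 230428 on the plus strand, with 3 exons, 1504 nt of exon sequence and 1389 coding nt. No annotated gene overlaps e. On the opposite strand of yellow-h lies asRNA:CR46065, from 228576 to 229112, which shares 208 nt with its exons, or 13.8% of their length. Whether counting used strand is not stated, so reads of the pair cannot be told apart in that stretch. A pair of short INE-1 transposon fragments also lies within yellow-h, and neither touches an exon.

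The targeted genes were looked at first because they check the labels. Kdm4A had 2141 and 2675 normalized counts in the libraries labelled dKDM4A RNAi, against 842 and 843 in the GFP RNAi libraries. A normalized count is the number of reads of a feature divided by a size factor of its library, as the authors deposited it. The targeted gene was thus higher, against its label, and each direction below is given for those libraries as labelled. In HP1a RNAi the gene of HP1a had 12834 and 15705 normalized counts, against 21963 and 25507 in GFP RNAi. The tables held only features with an adjusted p below 0.05, and the listed features had medians of 745 to 3362 reads per library.

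Transcripts of e were more abundant in the libraries labelled dKDM4A RNAi. e had 2416 and 2299 normalized counts in them, against 1205 and 1355 in GFP RNAi. Both libraries labelled dKDM4A RNAi lay above both GFP libraries, and the lowest of the first was 1.70-fold above the highest of the second. Such an absence of overlap held for all 90 features listed in the dKDM4A table. The means were 2358 ± 82.8 and 1280 ± 106 normalized counts (SD, n = 2 each), a 1.84-fold higher level. Those values rest on 2579 and 2020 reads in the libraries labelled dKDM4A RNAi and on 1518 and 1147 reads in GFP RNAi, where counting error alone is at most 2.95% of a value.

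yellow-h reached a similar fold, but its control libraries were far apart. yellow-h had 2099 and 2019 normalized counts in the libraries labelled dKDM4A RNAi, against 949 and 1383 in GFP RNAi. The groups did not overlap, as for all 90 listed features. The lowest library labelled dKDM4A RNAi was 1.46-fold above the highest GFP library. The means were 2059 ± 56.2 and 1166 ± 307 normalized counts (SD, n = 2 each), or 1.77-fold. The GFP libraries differed 1.46-fold from each other, which was the largest such difference among the 90 listed features, whose median was 1.07-fold and whose next largest was 1.33-fold. The libraries labelled dKDM4A RNAi differed only 1.04-fold for yellow-h. The reads behind it, 2240 and 1774 in the libraries labelled dKDM4A RNAi and 1196 and 1171 in GFP RNAi, give a counting error of at most 2.92%, far below the gap between the controls. Against GFP replicate 1 alone the log2 ratio of means was 1.12, and against GFP replicate 2 alone it was 0.57, beside 0.82 with both.

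**Figure D1:**
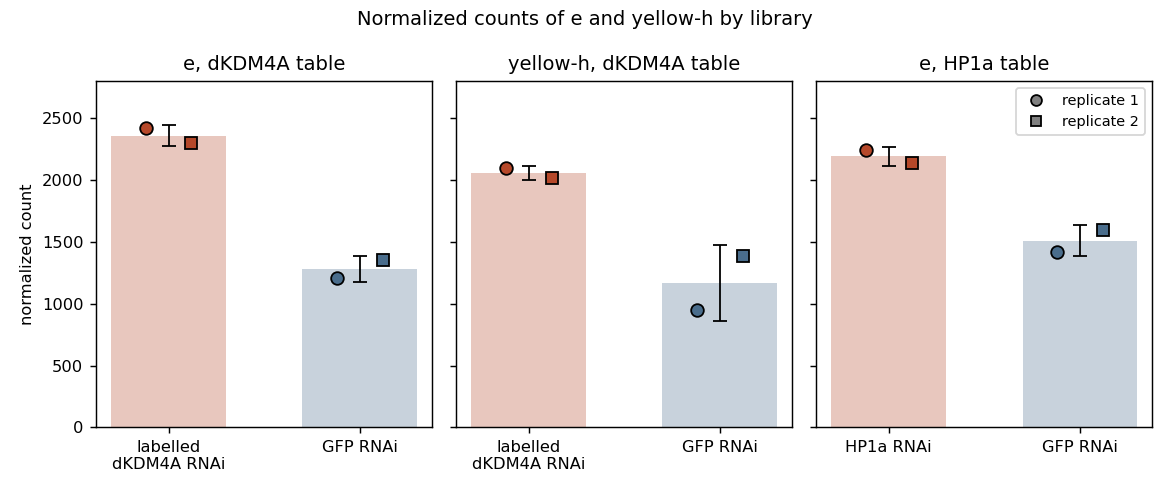
Normalized counts of e and yellow-h (y axis, from 0) in each library, with RNAi groups left of GFP RNAi; bars are means, error bars are SD of 2 libraries, circles are replicate 1 and squares replicate 2. No RNAi library overlaps a GFP library, which holds for all features listed in either table. The GFP libraries of yellow-h, at 949 and 1383, are the farthest apart.

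In the authors' deposited table, e had a log2 fold change of 0.85 with a standard error of 0.10 in the dKDM4A comparison, and yellow-h had 0.72 with a standard error of 0.17. Their adjusted p-values there were 6.84e-14 and 0.00287, which is what placed them among the listed features. By that log2 fold change e stood 4th and yellow-h 6th of the 66 features listed as higher, as chosen. By adjusted p, e was 5th and yellow-h 48th of 90. Across all features tested, 0.876% were listed as higher, 0.319% as lower and 1.19% in either direction. The higher features had a median fold of 1.37, and for all 90 the RNAi and GFP libraries did not overlap.

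**Figure D2:**
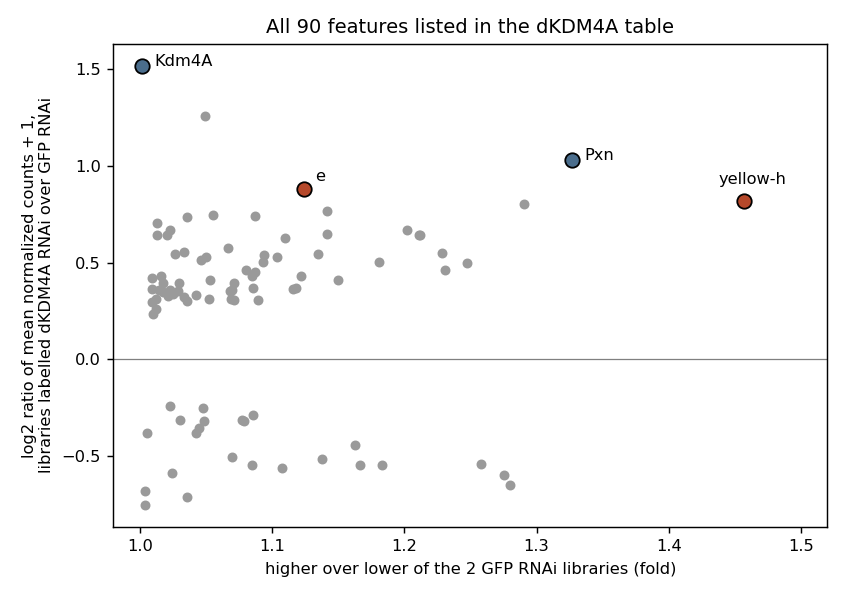
Each point is 1 of the 90 features listed in the dKDM4A table; the x axis is the fold between the higher and the lower GFP RNAi library and the y axis the log2 ratio of mean normalized counts + 1, libraries labelled dKDM4A RNAi over GFP RNAi. yellow-h lies farthest to the right at 1.46-fold, while e lies at 1.12-fold with a similar log2 ratio, 0.88 beside 0.82.

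Per length of exon, yellow-h was the more abundant transcript. It had 1369 ± 37.3 normalized counts per kb of exon in the libraries labelled dKDM4A RNAi, against 775 ± 204 in GFP RNAi (SD, n = 2 each). e had 750 ± 26.3 in the libraries labelled dKDM4A RNAi, against 407 ± 33.7 in GFP RNAi (SD, n = 2 each). The level of e per kb was 0.55 times that of yellow-h in either library labelled dKDM4A RNAi, against 0.61 and 0.47 times in the GFP libraries. The order of the pair was therefore the same in all 4 libraries, and the ratio in the libraries labelled dKDM4A RNAi lay between those of the GFP libraries.

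In HP1a RNAi, e was higher as well, by a smaller fold. e had 2245 and 2135 normalized counts in HP1a RNAi, against 1420 and 1599 for the same 2 GFP libraries as normalized in that table. Again no HP1a RNAi library overlapped a GFP library, and the nearest were 1.34-fold apart, but this absence of overlap holds for all 535 features listed in the HP1a table. The means were 2190 ± 78.2 in HP1a RNAi and 1510 ± 126 in GFP RNAi (SD, n = 2 each), or 1.45-fold. In the authors' deposited table the log2 fold change was 0.52 with a standard error of 0.11 and an adjusted p of 4.15e-05, the 218th of 346 features listed as higher. In that comparison 4.18% of all features tested were listed as higher, with a median fold of 1.65 among them, 2.28% as lower and 6.46% in either direction. yellow-h was not listed for HP1a RNAi, and its level there was not analysed here.

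The change of e could be set side by side in both treatments after each table was centred on its own GFP mean. On the scale of log2(normalized count + 1), e stood 0.58 and 0.50 above that mean in the HP1a RNAi libraries. It stood 0.92 and 0.85 above it in the libraries labelled dKDM4A RNAi. The difference, HP1a RNAi minus the libraries labelled dKDM4A RNAi, was -0.34 ± 0.07 (SD from 2 libraries each), and the lowest library labelled dKDM4A RNAi lay above both HP1a RNAi libraries. The 2 changes share their GFP libraries, and both were known when e was chosen, so no test of this difference is given. The GFP reads of e were identical in the tables, as they were for all 43 features listed in both. Only the scaling of the tables differed, by 0.848-fold and 0.847-fold for the GFP libraries.

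Genes whose profile over the 4 libraries of the dKDM4A table was most like that of e were sought by Euclidean distance in log2(normalized count + 1), centred on the GFP mean. The nearest of the other listed features was CG12520, at 0.22. It had only 161 and 141 normalized counts in the libraries labelled dKDM4A RNAi, against 87.3 and 92.1 in GFP RNAi. CG4611 followed at 0.26, yellow-h at 0.27, the 5'-nucleotidase gene veil at 0.29 and CG33181 at 0.31. e was in turn the nearest feature to yellow-h, at 0.27. After it came CG34347 at 0.29, CG33181 at 0.31, CG11825 at 0.34 and the cytochrome P450 gene Cyp6a14 at 0.34. All these features were higher there, and each of the last 4 was, like yellow-h, lower in GFP replicate 1 than in GFP replicate 2. Both traits enter the distance by which the features were picked, so they are no separate result. CG34347, for example, had 182 and 225 normalized counts in the libraries labelled dKDM4A RNAi, against 102 and 131 in GFP RNAi.

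**Figure D3:**
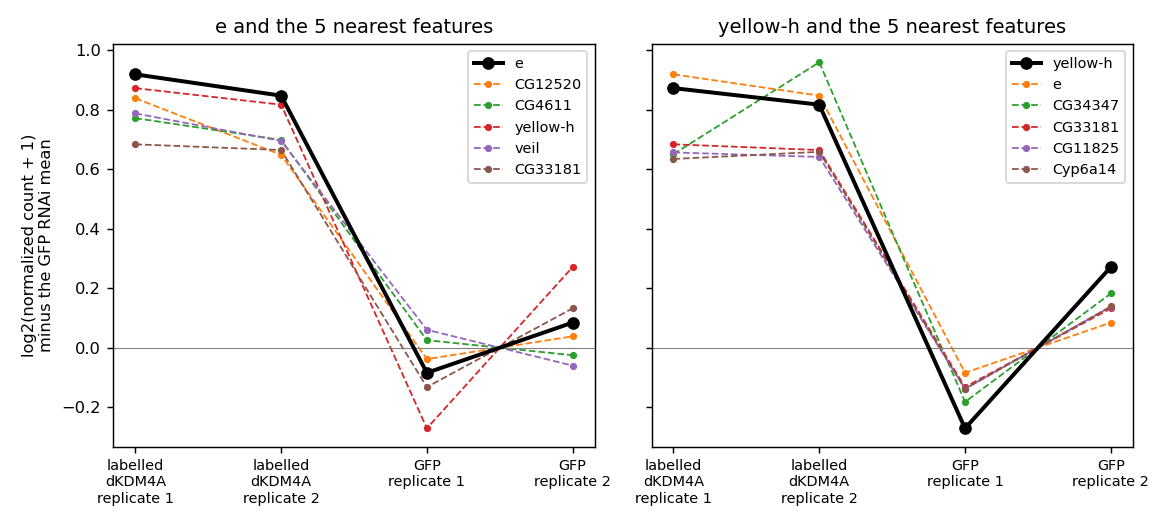
Profiles of e (left) and yellow-h (right), in black, with the 5 nearest features of the dKDM4A table over its 4 libraries; the y axis is log2(normalized count + 1) minus the GFP RNAi mean, and lines only join the values of 1 gene. The features sit between 0.63 and 0.96 in the libraries labelled dKDM4A RNAi, and yellow-h has the widest gap between GFP libraries.

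Over both tables, that is over 8 columns and among the 43 features listed in both, the features nearest to e were partly others. They were CG4611 at 0.35, the septin gene Sep4 at 0.41, veil at 0.43, Cyp6a14 at 0.51 and Cyp28d1 at 0.54. For 4 of these the fold was, as for e, smaller in HP1a RNAi than in the libraries labelled dKDM4A RNAi. CG4611 had 1.58-fold in HP1a RNAi and 1.67-fold in the libraries labelled dKDM4A RNAi. In HP1a RNAi Sep4 had 1.47-fold, veil 1.56-fold and Cyp28d1 1.29-fold, against 1.55-fold, 1.67-fold and 1.45-fold for Sep4, veil and Cyp28d1 in the libraries labelled dKDM4A RNAi. Cyp6a14 had the larger fold in HP1a RNAi, 1.66, against 1.56 in the libraries labelled dKDM4A RNAi. None of these small differences was tested, and the distance that picked these features favours a pattern like that of e.

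The other genes of pigment formation were counted in both tables. In the dKDM4A table, 0 of the 61 other genes of 5 pigment lists were listed, where 1.19% of all features tested were. At that share few or no listed genes would stand among 61, and how many of them were tested was not analysed here. Nothing is therefore read from this count. Unadjusted p-values of genes that were not listed were not analysed here. The yellow family had yellow-h as its 1 listed member of 14. Its other 13 genes lie on the X, 2L, 2R, 3L and 3R, so yellow-h is the only one on chromosome 4. The list of melanin and dopamine synthesis had e as 1 of 14, and that of beta-alanine and histamine metabolism e as 1 of 10. No member was listed among 20 eye pigment genes and 9 regulators of pigment patterns, such as bab1, bab2 and Abd-B.

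In the HP1a table, 4 of the 61 other pigment genes were listed, or 6.56% of the lists, beside 6.46% of all features tested. How many of the 61 were tested was not analysed here. The 2 shares therefore have unlike denominators, and nothing is read from them. Of the 4 listed genes, 2 were higher and 2 lower, and 3 of them act, like e, on catecholamines or their quinones. Dat, now named speck, encodes the arylalkylamine N-acetyltransferase, which takes dopamine to N-acetyl dopamine and so works on the same substrate as ebony. It had 314 and 301 normalized counts in HP1a RNAi, against 502 and 493 in GFP RNAi. Its deposited log2 fold change was -0.66 with a standard error of 0.12 (adjusted p = 6.39e-06 in the authors' deposited table). laccase2, now named stw, encodes the oxidase that hardens and tans the cuticle by oxidizing such catechols. It had 2401 and 2483 normalized counts in HP1a RNAi, against 2938 and 3288 in GFP RNAi. The deposited log2 fold change of laccase2 was -0.34 with a standard error of 0.10 (adjusted p = 0.0148 in the authors' deposited table).

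PPO2, a prophenoloxidase of crystal cells that makes melanin in immune responses, had 290 and 267 normalized counts in HP1a RNAi, against 200.2 and 185 in GFP RNAi. Its fold was 1.44, close to the 1.45 of e, with a deposited adjusted p of 0.0318 in the authors' deposited table. The eye pigment transporter gene w had 82.3 and 105.7 normalized counts in HP1a RNAi, against 28.1 and 34.8 in GFP RNAi. That made a fold of 2.99 at a low level, and the authors' deposited table gives a log2 fold change of 1.20 with a standard error of 0.26 and an adjusted p of 0.000149. The genes ple and Ddc, which make dopamine, and t and b, which encode Tan and the enzyme that makes beta-alanine from aspartate, were not listed in either table. Of the melanin and dopamine list as a whole, 4 of 14 genes were listed for HP1a RNAi, 2 higher and 2 lower, with e among the higher. Over all features tested 6.46% were listed in that comparison. The list is short and e was chosen as a listed gene, so nothing is read from this count.

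**Figure D4:**
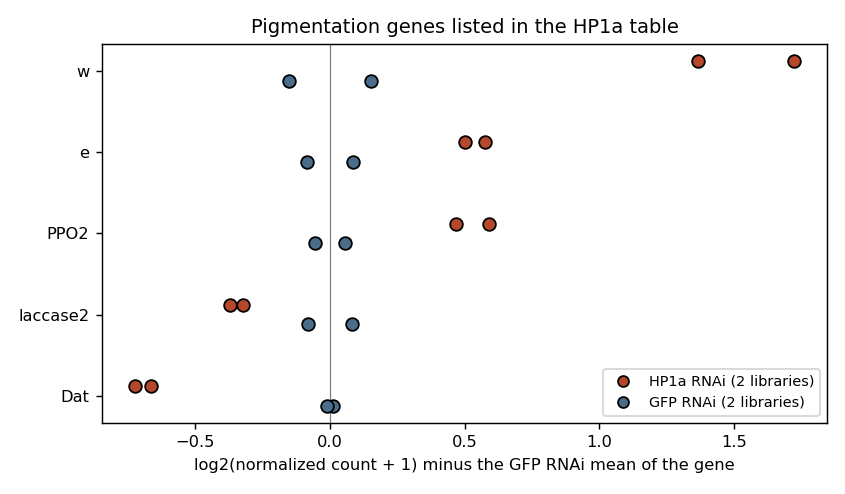
log2(normalized count + 1) minus the GFP RNAi mean of the gene (x axis) for the 5 pigment genes listed in the HP1a table, with the 2 HP1a RNAi libraries above the 2 GFP RNAi libraries in each row. w, e and PPO2 lie to the right of their GFP libraries, and laccase2 and Dat to the left.

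Markers of the cells in which these genes are known to act were also counted. Over all features tested, 1.19% were listed in the dKDM4A table and 6.46% in the HP1a table, so lists of this size would hold few or no listed members at the background share. Of 10 markers of epidermis and cuticle, 0 were listed in either table. Of 9 glial markers, 0 were listed in the dKDM4A table and 2 in the HP1a table, both higher. Gs2, a glutamine synthetase gene, had 2271 and 2000 normalized counts in HP1a RNAi, against 1622 and 1682 in GFP RNAi. Eaat1, a glutamate transporter gene, had 575 and 1048 in HP1a RNAi, against 399 and 464 in GFP RNAi, so its HP1a RNAi libraries differed widely. The summed level of Gs2 and Eaat1 was 2846 and 3048 in HP1a RNAi, against 2020 and 2146 in GFP RNAi. Both were listed as higher, so their sum had to be higher, and it gives no level of the whole glial list. Its part in the change of e was not tested. The levels of the other glial markers, such as repo and gcm, were not analysed here.

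Haemocyte markers, of the cell type that S2 cells resemble, had 2 of 12 members listed in each table, all higher, where 1.19% of all features tested were listed in the dKDM4A table and 6.46% in the HP1a table. With so few markers nothing is read from these counts. In the dKDM4A table these were Pxn, which encodes peroxidasin, and the phagocytosis receptor gene NimC1. Pxn had 297169 and 269658 normalized counts in the libraries labelled dKDM4A RNAi, against 158475 and 119469 in GFP RNAi. NimC1 had 4047 and 3774 in the libraries labelled dKDM4A RNAi, against 3055 and 3028 in GFP RNAi. In the HP1a table Pxn was joined by drpr, a receptor for engulfing dead cells, at 1.46-fold. The summed level of the listed markers was 273431 to 301215 in the libraries labelled dKDM4A RNAi against 122497 to 161530 in GFP RNAi, and 353404 to 423353 in HP1a RNAi against 153166 to 199071 in GFP RNAi. These sums hold only markers listed as higher, so they had to be higher, and Pxn made up most of each sum. They give no level of the whole marker list. The part of these markers in the changes of e and yellow-h was not tested. In such bulk RNA more cells of a type and more RNA per cell cannot be told apart.

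The neighbours of both genes were looked up in the tables, where 1.19% (dKDM4A) and 6.46% (HP1a) of all features tested were listed. Within 100 kb of e there were 23 other protein-coding genes, and 0 of them were listed in either table. The nearest listed gene in both tables was CG5697, 212.7 kb away, from 21015949 to 21017120 on chromosome 3R. Like e, it was listed as higher in both. Its deposited log2 fold change was 1.06 in the dKDM4A comparison and 0.72 in the HP1a comparison. A link between CG5697 and e was not tested. Within 100 kb of yellow-h there were 19 other protein-coding genes, of which 0 were listed in the dKDM4A table and 1 in the HP1a table. At the background shares few or no listed genes would stand among so few neighbours, so nothing is read from these counts. CG31999 lies 174 bp from one end of yellow-h and CG1674 302 bp from the other, and neither was listed. The stretch around yellow-h held 78 annotated transposon insertions, against 3 around e.

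yellow-h was the only gene of chromosome 4 listed in the dKDM4A table, where 1.19% of all features tested were listed. The chromosome has 80 annotated protein-coding genes. How many of them were tested was not analysed here, so no share of the chromosome is set beside that of all features. The HP1a table, with 6.46% of all features tested, listed 16 features of chromosome 4, of which 3 were higher and 13 lower, and yellow-h was not among them. The nearest of these to yellow-h was CG31998, 22.0 kb away. It had 6456 and 6357 normalized counts in HP1a RNAi, against 7665 and 7565 in GFP RNAi. In the authors' deposited table its log2 fold change was -0.25 with a standard error of 0.07 and an adjusted p of 0.00553. For chromosome 3R, which carries e, 23 features were listed in the dKDM4A table, 16 higher and 7 lower, and 108 in the HP1a table, 68 higher and 40 lower. That chromosome has 3421 annotated protein-coding genes, and the number of them tested was not analysed here either.

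**Figure D5:**
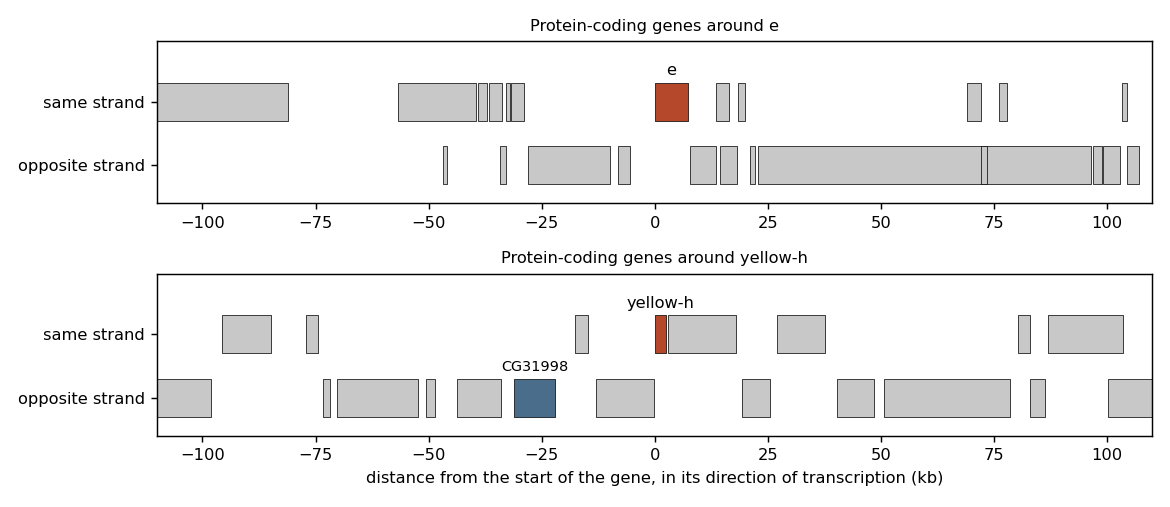
Protein-coding genes around e (top) and yellow-h (bottom) by distance in kb from the start of the gene in its direction of transcription, on the same strand or the opposite one. e and yellow-h are red, CG31998, listed in the HP1a table, is blue, and grey genes were listed in neither table.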

How the data were processed

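RNA was polyadenylated RNA of S2 cells, 2 libraries per group. Per the submitters' processing notes, TopHat, Bowtie and DESeq2 were used; their versions, and the genome build, are not given here. Of the genes found in the BDGP6 annotation, 81 of 81 (dKDM4A) and 458 of 461 (HP1a) had equal positions there. The signal columns are normalized counts that the authors deposited, scaled separately in each table. The log2 fold changes, their standard errors, the score (log2 fold change over its error) and the p-values are also those the authors deposited. The deposited adjusted p-values gave 7533 and 8287 tested features by their Benjamini-Hochberg ranks. Rows without values, 1 per table, were left out.

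Reads were recovered from each column's step, the value of 1 read: every value was a whole number of steps within 0.1 reads. Total depth is unknown. No count test was run. Log2 ratios used a pseudocount of 1, and no filter was applied. Such ratios understate changes of low genes. The members and lists were chosen with earlier results of these data known, so no test of the members is given. Named genes were the members, the targets, listed genes of the pigment and marker lists, listed genes within 100 kb of a member and the 5 most alike features. Sites such as CG31999, CG1674 and CG5697 were named after their values were seen. All 94 list symbols had a gene ID. Steps were tested on simulated data. Sequences of the genes were not used here. Python 3.11.15, numpy 2.4.6, pandas 2.3.3 and matplotlib 3.10.9 were used.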

Additional observations from a re-analysis of the deposited data

How the results depend on the processing

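Pseudocounts of 0.1 and 5 and the deposited log2 fold changes moved the log2 ratios of e and yellow-h by less than 1 SD. With each library left out in turn, the log2 ratio of e lay between 0.80 and 0.97 in the libraries labelled dKDM4A RNAi and between 0.45 and 0.62 in HP1a RNAi, and its difference between them from -0.38 to -0.31. That of yellow-h lay between 0.57 and 1.12, both ends set by a GFP library. With the replicate number as a block the values were 0.88 for e and 0.84 for yellow-h in the libraries labelled dKDM4A RNAi, 0.54 for e in HP1a RNAi and -0.34 for the difference. Each number holds 1 library per group, so a block cannot change a mean difference of logs. These values are therefore no check of pairing, and they differ from the main ones only by averaging logs. The labels do not say that the numbers pair the libraries; deviations of same-numbered libraries correlated at 0.28 and 0.24 over the features of the dKDM4A and HP1a tables. Of the 4 other pigment genes listed in the HP1a table, 2 had a deposited adjusted p below 0.01, 1 had a log2 fold change of 1 or more in size, and 3 had a mean of at least 100. Among the features nearest to e, 4 of 5 were kept at a pseudocount of 5, and for yellow-h all 5. For the other named genes 215 of 216 values moved by less than 1 SD, and the exception was w, at 1.20 deposited beside 1.55 from the means. Many of the 216 values come from leaving out 1 library or from the block. With 2 libraries per group such values can hardly move by 1 SD, so for them the count is no check. Other scalings could not be tried, because unlisted features were not analysed here.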
